A study of Bos taurus with 4 samples.

Results

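The enzymes of glycolysis, the tricarboxylic acid (TCA) cycle and the pentose phosphate pathway were followed in bovine (Bos taurus) embryos after siRNA injection against KDM5 histone demethylases. A list of 40 genes was matched by symbol to a deposited table of 14517 RefSeq transcripts. 39 of the genes had a row, in 42 rows, because IDH3B had 3 and MDH1 had 2. HK2 had no row under its symbol and was not analysed here. Embryos were collected at the 8/16-cell stage, 3 days post insemination, when the embryo's own genome becomes active. All had been injected as zygotes, either with negative control siRNAs (NC, 2 libraries) or with siRNAs against KDM5A, KDM5B and KDM5C (KDM5_KD, 2 libraries). The second knockdown library is titled a Kdm5 knockdown, but its treatment label names KDM6A, KDM6B and KDM6C siRNAs. It was kept in the group of its title. The number of embryos per library and whether the libraries came from separate embryo batches are not given in the labels, so p-values measure the spread between these libraries only.

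Glycolysis splits glucose to pyruvate, which lactate dehydrogenase converts to lactate or the pyruvate dehydrogenase complex passes to the TCA cycle as acetyl-CoA. The pentose phosphate pathway diverts glucose 6-phosphate to make NADPH and ribose 5-phosphate for nucleotides. Cleavage-stage mammalian embryos are known to live mainly on pyruvate and lactate and to use more glucose as they approach the blastocyst stage.

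The siRNA targets were checked first. KDM5A was at 28.4 and 27.1 FPKM (fragments relative to the length of the transcript and the mapped total) in NC replicates 1 and 2, against 10.5 and 10.1 FPKM in KDM5_KD replicates 1 and 2 (limma log2 fold change -1.35 with SE 0.142 and adjusted p 0.0333). The direction held in every alternative setting, but KDM5A did not pass the limma test with the replicate block (adjusted p 0.0591), without a trend (0.0605), without a filter (0.167) or with NC replicate 2 or either knockdown library left out (0.0647 to 0.232). KDM5C had 28.1 and 40.6 FPKM in NC, against 15.1 and 17.8 FPKM in KDM5_KD (limma log2 fold change -0.999 with adjusted p 0.123), and KDM5B was not analysed here. KDM6A overlapped between the groups, at 7.63 and 11.3 against 7.90 and 9.29 FPKM. KDM6B and KDM6C, which the treatment label also names, were not analysed here. In KDM5A and KDM5C the second knockdown library lay on the same side of both NC libraries as the first. FPKM sums lay between 283347 and 322267 per library. Read counts are unknown, but the steps between low values put the other libraries at 0.683 to 0.803 times the depth of NC replicate 2. In the first principal component, NC replicate 1 (-13.4) took a middle place, with NC replicate 2 at -33.5 and the KDM5_KD libraries at 23.7 and 23.2.

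Levels of the enzymes differed widely within each library. Transketolase (TKT), which moves carbon units between sugars in the non-oxidative pentose phosphate branch, had the highest mean, 608 FPKM, above 99.6% of all transcripts tested. PGAM1, GPI, ALDOA, PC, PGK1 and GAPDH followed, with means between 94.3 and 133 FPKM. Enzymes known as control points of glycolysis differed in level. The pyruvate kinase gene PKM had a mean of 71.3 FPKM. Hexokinase HK1 had a mean of 16.3 FPKM, and the phosphofructokinases PFKP, PFKL and PFKM had means of 5.64, 3.88 and 0.778 FPKM. DLAT, the acetyltransferase core of pyruvate dehydrogenase, averaged 4.07 FPKM and ACO1, the cytosolic aconitase, 2.56 FPKM. FPKM are scaled to transcript length, so these levels can be set beside each other roughly. Whether oligo(dT) selection and PCR amplification captured all transcripts alike was not tested, and reads of near-identical copies may be divided.

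**Figure D1:**
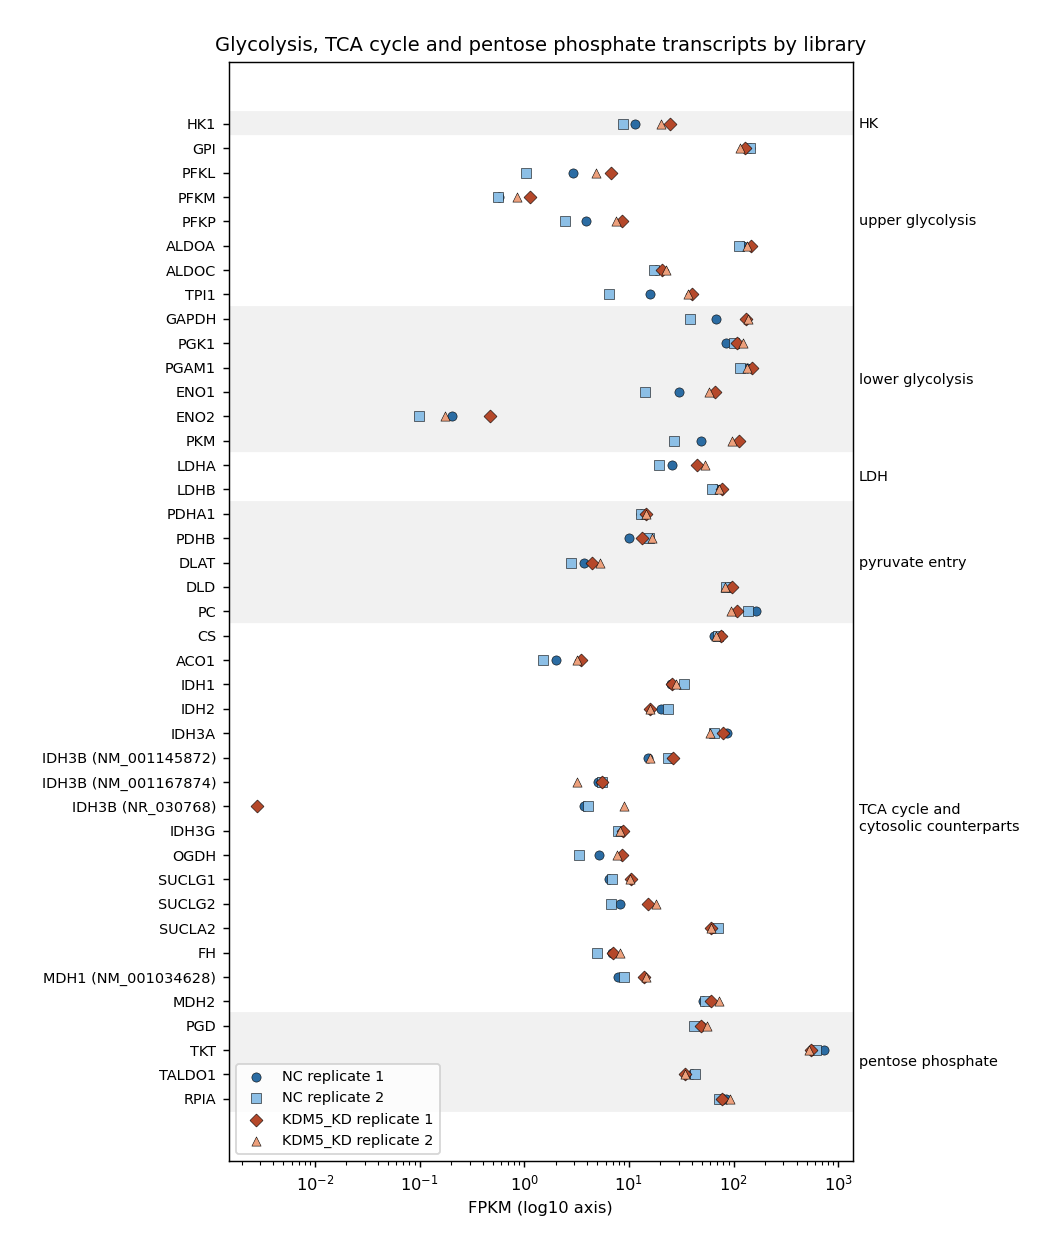
FPKM of each member transcript (horizontal log10 axis) in the 4 libraries, with 1 row per transcript grouped by role. TKT lies highest, and TPI1, GAPDH, ENO1 and PKM show NC replicate 2 lowest, NC replicate 1 next and both KDM5_KD libraries highest. The non-coding MDH1 row, near 0 in every library, is not drawn.

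Of the 42 rows, 39 from 37 genes had a mean of at least 1 FPKM and were tested. PFKM, ENO2 and the non-coding row of MDH1 were below it. None of the 39 passed the limma test at an adjusted p under 0.05, where 25 of all 8970 transcripts did (0.279%). The lowest adjusted p among them was 0.0970, for LDHA. At an unadjusted limma p under 0.05 there were 16 of the 39, against 17.5% of all transcripts. Both knockdown libraries lay above both NC libraries for 22 of the 39, where the background was 35.1%, and below them for 6, where it was 15.6%. The median log2 fold change, on the log2(FPKM + 1) scale that understates differences of low transcripts, was 0.22 for the 39 and 0.09 for all transcripts. The direction was uneven across the pathways. Among the 14 tested member transcripts of glycolysis and lactate dehydrogenase, 13 lay above with a median of 1.09. Among the other 25, 9 lay above and 5 below, with a median of 0.10. A log2 fold change of at least 1 was found for 9 of the 39, of which 8 belong to glycolysis or lactate dehydrogenase. The background for it was 4.52%, but from transcripts of lower level. The median level was 28.2 FPKM for the 39 and 56.0 FPKM for the 14, against 10.5 FPKM for all transcripts. Quantile normalization shifted the median of all transcripts by -0.14, to -0.045, and the median of the 39 was then 0.18. With median-ratio scaling these medians were -0.007 and 0.12. The share of all transcripts with separated groups was not computed under either scaling, so counts of separated members are not given for them.

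**Figure D2:**
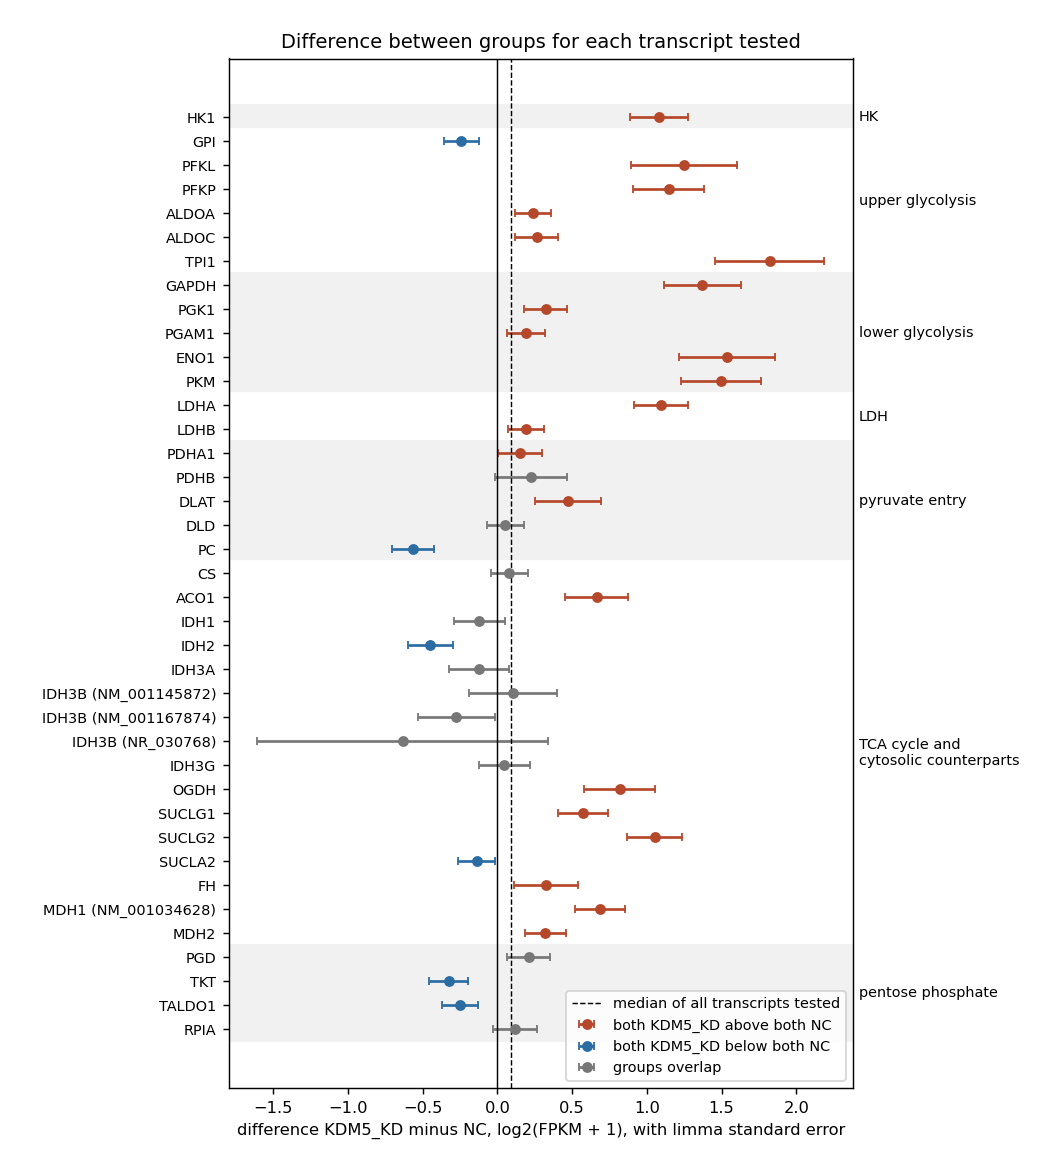
Difference between KDM5_KD and NC for the 39 transcripts tested, on the log2(FPKM + 1) scale (horizontal axis), with limma standard errors and a dashed line at the median of all transcripts tested (0.09). The largest positive differences are those of TPI1, ENO1, PKM and GAPDH, and the largest negative difference with separated groups is that of PC.

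At the entry of glucose into glycolysis, HK1, which phosphorylates glucose, had 11.4 and 8.81 FPKM in NC, against 24.8 and 20.1 FPKM in KDM5_KD. The groups did not overlap and the knockdown mean was 2.22 times the control mean (limma log2 fold change 1.08 with SE 0.194 and adjusted p 0.106). GPI, which converts glucose 6-phosphate to fructose 6-phosphate, was at 144 FPKM in both NC libraries and at 129 and 114 FPKM in KDM5_KD. It was the only one of the 14 that lay lower in both knockdown libraries (limma log2 fold change -0.24 with SE 0.118 and adjusted p 0.353), and its log2 fold change was -0.15 without KDM5_KD replicate 2. The next step is the committed one, phosphofructokinase. PFKL, the liver type, had 2.92 and 1.04 FPKM in NC, against 6.76 and 4.82 FPKM in KDM5_KD (limma log2 fold change 1.25 with SE 0.352 and adjusted p 0.175). PFKP, the platelet type, had 3.90 and 2.44 FPKM in NC, against 8.62 and 7.58 FPKM in KDM5_KD (limma log2 fold change 1.15 with SE 0.239 and adjusted p 0.123). PFKM, the muscle type, was near the limit of the filter, at 0.570 and 0.563 against 1.13 and 0.849 FPKM, and was not tested. All phosphofructokinases together summed to 7.39 and 4.05 FPKM in NC and to 16.5 and 13.2 FPKM in KDM5_KD.

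Aldolases split fructose 1,6-bisphosphate. ALDOA had 124 and 113 FPKM in NC, against 147 and 133 FPKM in KDM5_KD, and ALDOC, the brain type, had 18.3 and 17.4 against 20.6 and 22.6 FPKM. Both were separated between the groups, by log2 fold changes of 0.24 and 0.26 (limma adjusted p of 0.367 and 0.399), which were 0.13 and 0.16 with median-ratio scaling. TPI1, which interconverts the triose phosphates made by aldolase, had the largest difference of all members. It had 15.8 and 6.40 FPKM in NC, against 40.1 and 36.7 FPKM in KDM5_KD. The knockdown mean was 3.46 times the control mean (limma log2 fold change 1.82 with SE 0.367 and adjusted p 0.117), and NC replicate 1 was itself 2.47 times NC replicate 2.

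In lower glycolysis, where ATP and NADH are made, 5 transcripts were tested and all lay higher in both knockdown libraries, by unequal amounts. GAPDH, the NADH-producing step and a common reference transcript in PCR assays, had 68.7 and 38.7 FPKM in NC, against 132 and 137 FPKM in KDM5_KD (limma log2 fold change 1.37 with SE 0.258 and adjusted p 0.108). ENO1, the main enolase outside muscle and neurons, had 30.1 and 14.3 FPKM in NC, against 65.9 and 58.5 FPKM in KDM5_KD (limma log2 fold change 1.53 with SE 0.323 and adjusted p 0.123). PKM, a pyruvate kinase gene, had 48.5 and 27.1 FPKM in NC, against 113 and 96.4 FPKM in KDM5_KD (limma log2 fold change 1.498 with SE 0.268 and adjusted p 0.106). For all 3 of these, NC replicate 1 took the middle place, at 1.78 to 2.11 times NC replicate 2. PGAM1, which shifts the phosphate of 3-phosphoglycerate, had 133 and 116 FPKM in NC, against 149.8 and 135 FPKM in KDM5_KD, a limma log2 fold change of 0.19 with SE 0.129 and adjusted p 0.491. It was 0.081 with median-ratio scaling, 0.12 without KDM5_KD replicate 1, 0.29 without NC replicate 1 and 0.091 without NC replicate 2. PGK1, the first ATP-producing step, had a log2 fold change of 0.32, which was 0.21 with median-ratio scaling and 0.195 without NC replicate 1. The neuronal enolase ENO2 was at or below 0.467 FPKM in every library. GAPDH and other glycolytic genes have processed pseudogenes in mammalian genomes, so their rows may hold or lose reads of copies.

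Because the steps differed unequally, ratios between enzymes of the pathway differed between the groups. The ratio of GAPDH to PGK1 was 0.814 and 0.383 in NC and 1.23 and 1.11 in KDM5_KD. ENO1 over PGAM1 was 0.226 and 0.123 in NC and 0.440 and 0.434 in KDM5_KD. TPI1 over GPI, which lies further upstream, was 0.109 and 0.0446 in NC, and 0.310 and 0.321 in KDM5_KD. None of these ratios overlapped between the groups, but each sets a transcript with a large difference over one with a small or opposite difference. The separation therefore restates those differences and adds no result of its own. TKT over TALDO1, both of which lay lower, overlapped, at 18.5 and 14.6 in NC and 16.1 and 15.2 in KDM5_KD. With 2 libraries against 2, an exact two-sided permutation test of a single ratio or share cannot give a p below 0.333.

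**Figure D3:**
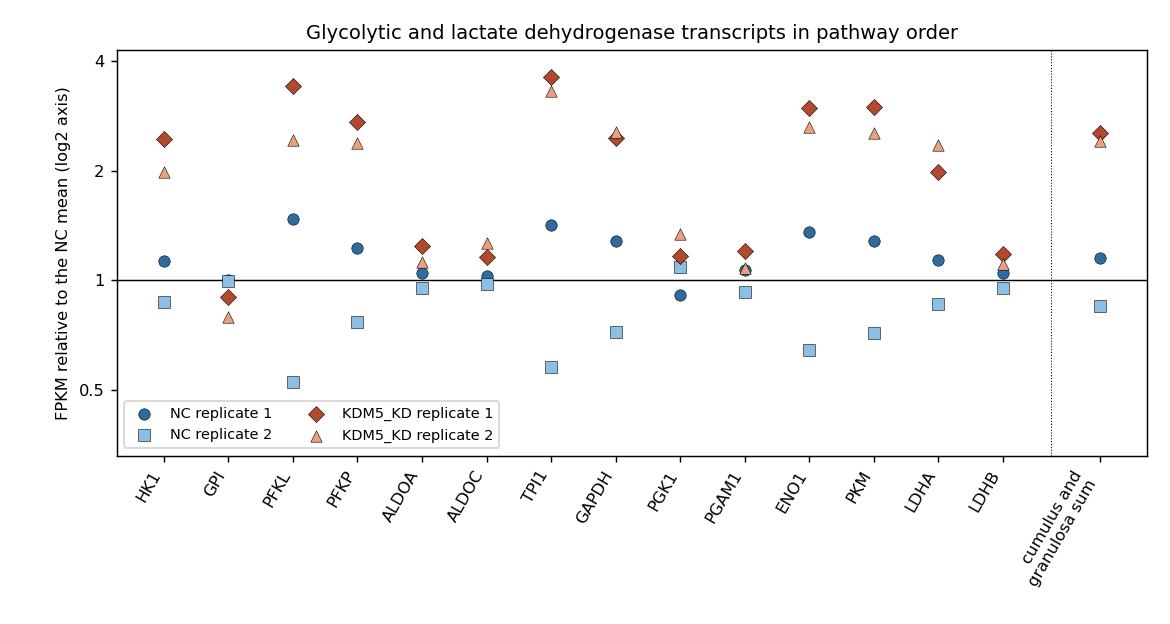
FPKM of each tested glycolytic or lactate dehydrogenase transcript relative to its NC mean (vertical log2 axis), in pathway order. At the right are the summed genes listed as cumulus and granulosa cell markers. GPI, ALDOA, ALDOC, PGK1, PGAM1 and LDHB lie close to 1 in all 4 libraries, while HK1, PFKL, PFKP, TPI1, GAPDH, ENO1, PKM and LDHA lie near or above 2 in both KDM5_KD libraries.

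Lactate dehydrogenase showed the same unevenness between its subunit genes. LDHA, whose subunit is typical of glycolytic tissue, had 25.9 and 19.6 FPKM in NC, against 45.1 and 53.6 FPKM in KDM5_KD (limma log2 fold change 1.09 with SE 0.179 and adjusted p 0.0970). LDHB, typical of oxidative tissue, had 68.4 and 61.9 FPKM in NC, against 77.0 and 72.1 FPKM in KDM5_KD (limma log2 fold change 0.19 with SE 0.121 and adjusted p 0.466), a difference of 0.083 with median-ratio scaling and 0.12 without NC replicate 2. LDHB was the more abundant subunit transcript in every library. The share of LDHA in the sum of both was 27.5% and 24.0% in NC and 36.95% and 42.6% in KDM5_KD, without overlap.

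The 2 NC libraries differed from each other for the transcripts with the largest differences. The order NC replicate 2, NC replicate 1, then both knockdown libraries held for 12 of the 14 glycolytic and lactate dehydrogenase transcripts, for 6 of the other 25 members and for 23.3% of all transcripts. GPI and PGK1 were the exceptions among the 14. With NC replicate 1 left out, 9 members passed the limma test, all higher: TPI1, ENO1, PKM, GAPDH, PFKL, PFKP, LDHA, HK1 and SUCLG2, with adjusted p from 0.00199 to 0.0431. In that fit 4.02% of all transcripts passed as higher, and the lone NC library was assumed to vary like the knockdown libraries. With NC replicate 2 left out no member passed, where 0.209% of all transcripts passed as higher, and the log2 fold changes were smaller, at 1.23 for TPI1, 1.02 for ENO1, 1.09 for PKM, 0.96 for GAPDH and 0.78 for PFKL. Without KDM5_KD replicate 2, whose labels disagree, these were 1.88, 1.62, 1.61, 1.34 and 1.46.

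Markers of other cells were read beside these transcripts. Cumulus and granulosa cells surround the oocyte in the follicle and can stay attached to a zygote. Of the genes listed here as their markers, 12 had a row. Whether each gene is specific to these cells was not tested. The 12 summed to 28.2 and 20.9 FPKM in NC and to 62.4 and 59.5 FPKM in KDM5_KD. Of the 7 that could be tested, 6 lay higher in both knockdown libraries, where 35.1% of all transcripts did. LUM, which encodes the matrix proteoglycan lumican, had 4.02 and 5.12 FPKM in NC, against 23.8 and 15.6 FPKM in KDM5_KD. CYP11A1, which starts steroid hormone synthesis, had 8.41 and 3.79 FPKM in NC, against 12.5 and 17.2 FPKM in KDM5_KD. INHBA, an inhibin and activin subunit, had 2.14 and 1.38 against 5.11 and 3.53 FPKM. FOXL2, a granulosa transcription factor, was below the filter, at 0.660 and 0.491 against 1.07 and 1.25 FPKM. The follicle-stimulating hormone receptor FSHR and the aromatase CYP19A1 were at or below 0.0602 FPKM in every library, and FSHR was listed at 0 in both NC libraries. FSHR and CYP19A1 were thus near 0 throughout, while LUM, CYP11A1, INHBA and FOXL2 lay higher in both knockdown libraries. TNFAIP6, the tested marker that did not lie higher, overlapped, at 1.21 and 1.31 FPKM in NC against 1.10 and 1.26 FPKM in KDM5_KD. DCN, below the filter, overlapped as well, at 0.199 and 0.727 against 0.652 and 1.95 FPKM. Of the oocyte and cleavage-stage markers 5 of 11 tested rows lay higher in both knockdown libraries, against the same 35.1% of all transcripts. These markers together summed to 550 and 428 FPKM in NC and 660 and 740 FPKM in KDM5_KD. The 3 blood markers summed to 0.757 FPKM or less. The part of other cells in the glycolytic differences was not tested. In whole embryos a difference in the number of cells and one in RNA per cell cannot be told apart.

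At the branch where pyruvate enters mitochondria, the differences went both ways. PC, pyruvate carboxylase, which makes oxaloacetate to refill the TCA cycle, had 164 and 138 FPKM in NC, against 109 and 94.8 FPKM in KDM5_KD. This was the lowest log2 fold change among members with separated groups (-0.56, SE 0.140, limma adjusted p of 0.150). DLAT had 3.74 and 2.77 FPKM in NC, against 4.41 and 5.34 FPKM in KDM5_KD (limma log2 fold change 0.47 with SE 0.221 and adjusted p 0.340). The DLAT difference was 0.20 with quantile normalization and 0.30 without NC replicate 2. The other subunits of pyruvate dehydrogenase, PDHA1, PDHB and DLD, had log2 fold changes between 0.05 and 0.22 and limma adjusted p between 0.656 and 0.871, and the sign of DLD changed to -0.06 with median-ratio scaling. PDHA1 lay higher in both knockdown libraries, but its difference of 0.15 was 0.044 with median-ratio scaling and 0.0031 with quantile normalization. PC exceeded PDHA1 12.4 and 10.7 times in NC and 7.41 and 6.56 times in KDM5_KD.

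The TCA cycle and its cytosolic counterparts had 16 tested rows, of which 7 lay higher in both knockdown libraries, 2 lay lower and 7 overlapped, where 35.1% of all transcripts lay higher and 15.6% lower. Their summed FPKM was 381 and 391 in NC and 417 and 402 in KDM5_KD. The largest difference was at succinyl-CoA ligase. SUCLG2, the beta subunit that makes GTP, had 8.29 and 6.81 FPKM in NC, against 15.1 and 18.3 FPKM in KDM5_KD (limma log2 fold change 1.05 with SE 0.187 and adjusted p 0.106). SUCLA2, the beta subunit that makes ATP, had 62.2 and 71.4 FPKM in NC, against 60.3 and 60.6 FPKM in KDM5_KD (limma log2 fold change -0.14 with SE 0.126 and adjusted p 0.617). Its difference was -0.04 without NC replicate 2, -0.24 without NC replicate 1 and -0.25 with median-ratio scaling. SUCLG2 thus made up 11.8% and 8.70% of the beta subunit transcripts in NC and 20.0% and 23.2% in KDM5_KD. The shared alpha subunit SUCLG1 had 6.46 and 6.88 FPKM in NC, against 10.5 and 10.3 FPKM in KDM5_KD (limma log2 fold change 0.57 with SE 0.168 and adjusted p 0.185), a difference of 0.38 with quantile normalization.

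OGDH, the first enzyme of the oxoglutarate dehydrogenase complex, had 5.20 and 3.31 FPKM in NC, against 8.60 and 7.68 FPKM in KDM5_KD (limma log2 fold change 0.82 with SE 0.237 and adjusted p 0.181). The cytosolic malate dehydrogenase MDH1 had 7.85 and 9.0 FPKM in NC, against 13.8 and 14.4 FPKM in KDM5_KD (limma log2 fold change 0.69 with SE 0.165 and adjusted p 0.143). Unlike for TPI1 or GAPDH, NC replicate 1 was not above NC replicate 2 for MDH1 or SUCLG1. ACO1 had 2.01 and 1.51 FPKM in NC, against 3.51 and 3.20 FPKM in KDM5_KD (limma log2 fold change 0.66 with adjusted p 0.205, and 0.36 with quantile normalization). IDH2, the mitochondrial isocitrate dehydrogenase that makes NADPH, lay lower, at 20.4 and 23.6 FPKM in NC, against 15.8 and 15.9 FPKM in KDM5_KD (limma log2 fold change -0.45 with SE 0.150 and adjusted p 0.216). Its cytosolic counterpart IDH1 overlapped between the groups, and so did citrate synthase (CS), whose difference of 0.08 became -0.03 with median-ratio scaling. FH and MDH2 had log2 fold changes of 0.32 each. That of FH was 0.12 without NC replicate 2 or with quantile normalization and 0.53 without NC replicate 1, and that of MDH2 was 0.196 without KDM5_KD replicate 2 and 0.21 with median-ratio scaling.

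The NAD-dependent isocitrate dehydrogenase is built from IDH3A, IDH3B and IDH3G, and none of their 5 rows was separated between the groups. IDH3A, the catalytic subunit, had 86.7 and 65.0 FPKM in NC, against 80.0 and 59.2 FPKM in KDM5_KD. IDH3G was at 8.58 and 7.90 against 8.77 and 8.29 FPKM, and the sign of its difference changed under both scalings. The 3 IDH3B rows may share reads. The non-coding row was listed at 0.00280 FPKM in KDM5_KD replicate 1 and at 8.997 FPKM in replicate 2, while the main row (NM_001145872) was at 26.3 and 15.9 FPKM there. The sign of the main row's difference changed under median-ratio scaling. Summed over its rows, IDH3B made up 20.2% and 31.2% of the IDH3 transcripts in NC and 26.4% and 29.4% in KDM5_KD.

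**Figure D4:**
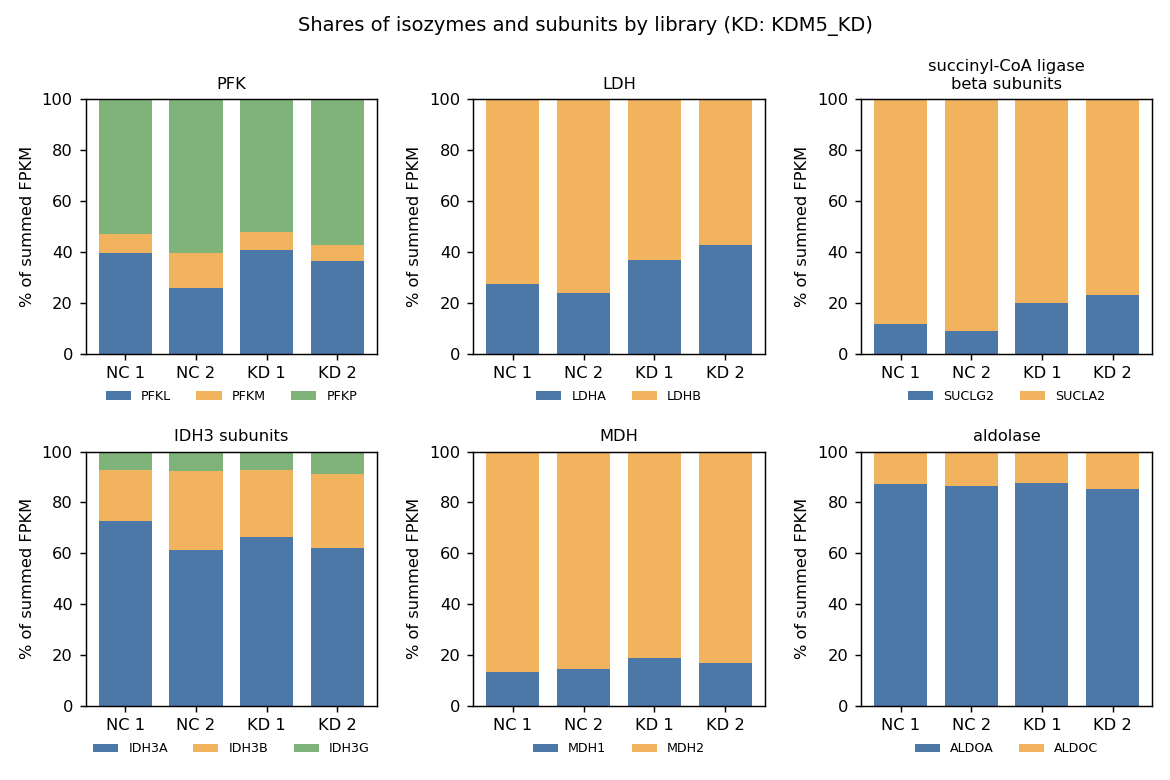
Share of each isozyme or subunit in the summed FPKM of its family (vertical axis, percent) in the 4 libraries. The shares of LDHA, SUCLG2 and MDH1 are larger in both KDM5_KD libraries than in both NC libraries, while the PFKL and IDH3A shares overlap and ALDOA holds 85.5% to 87.7% in every library.

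In the pentose phosphate pathway, TKT had 739 and 618 FPKM in NC, against 549 and 528 FPKM in KDM5_KD. Its groups were separated by a limma log2 fold change of -0.33 with SE 0.131 and adjusted p 0.281, and the log2 fold change was -0.198 without NC replicate 1. TALDO1, the transaldolase that works beside it, lay lower as well (limma log2 fold change -0.25 with adjusted p 0.358). PGD, the second NADPH-producing step, and RPIA, the ribose 5-phosphate isomerase, overlapped between the groups, with log2 fold changes of 0.21 and 0.12. No pentose phosphate member lay higher in both knockdown libraries. The 4 transcripts summed to 913 and 774 FPKM in NC and to 710 and 712 FPKM in KDM5_KD.

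A further 60 genes of the same pathways were listed, of which 57 had a row and 41 rows were tested. None passed the limma test, and 8 (19.5%) had an unadjusted limma p under 0.05, near the 17.5% of all transcripts. Both knockdown libraries lay above both NC libraries for 16 of the 41 (39.0%) and below for 4 (9.76%). Over all transcripts these shares were 35.1% and 15.6%, so the share above was near the background. Their median log2 fold change was 0.19. The 2 that were separated by at least 0.8 were ME1, the cytosolic NADPH-producing malic enzyme, and RBKS, ribokinase. ME1 had 0.962 and 0.477 FPKM in NC, against 2.07 and 2.09 FPKM in KDM5_KD (limma log2 fold change 0.85 with SE 0.229 and adjusted p 0.163). RBKS had 0.998 and 0.467 FPKM in NC, against 2.07 and 2.71 FPKM in KDM5_KD (limma log2 fold change 0.98 with SE 0.247 and adjusted p 0.154). With a pseudocount of 0.1 the log2 fold changes of these low transcripts were 1.48 for ME1 and 1.65 for RBKS. Of the tested further genes grouped with glycolysis, PFKFB2, BPGM and LDHC lay above and ADPGK and PFKFB4 below. The groups overlapped for PFKFB3, TIGAR, ENO3, PGM1, PGM2 and UGP2. The direction of the glycolytic members was thus not shared by all of these genes.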

How the data were processed

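Polyadenylated RNA of bovine embryos was sequenced after oligo(dT) selection and PCR amplification, per the labels' protocols. The authors deposited FPKM values, 1 column per library. The submitters' processing notes name Trimmomatic, HISAT2, featureCounts and Cufflinks without roles or versions; the genome build is not given in the sources used here. Symbols came from the RefSeq gene table of ARS-UCD2.0, which matched 14295 of 14517 accessions; no positions or sequences are given. Groups come from the titles.

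Differences were tested with limma 3.58.1 in R 4.3.3 on log2(FPKM + 1), without covariates, with a mean-variance trend. The 8970 transcripts with a mean of at least 1 FPKM were tested and p-values adjusted over all of them (Benjamini-Hochberg). The script was tested on simulated data. Read depth is unknown, so precision rests on 2 libraries per group. Other settings tried were a 0.1 pseudocount, no filter (rows at 0 throughout left out) or one at 5 FPKM, median-ratio scaling, quantile normalization, no trend, the replicate block, rows summed by symbol and leaving out each library. Members and lists were chosen with earlier results of these data known. Values in every library are given for members with an adjusted p under 0.05, with separated groups and an absolute log2 fold change of at least 0.4, with the highest level in their role, or from the HK, PFK, ALDO, ENO, LDH, IDH3 and SUCL isozyme families, and for further pathway genes at 0.8. Plots used Python 3.11.15 and matplotlib 3.10.9.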

Additional observations from a re-analysis of the deposited data

How the results depend on the processing

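No member passed in any of the 8 alternatives with all 4 libraries; without single replicates the number ranged from 0 to 9, the 9 coming without NC replicate 1. Leaving out 1 replicate gave 3 to 362 transcripts called higher and 3 to 18 lower, against 17 and 8. eBayes without a trend gave 6 higher, the filter at 5 FPKM 11, and no filter 2 higher and 1 lower. The replicate block left 8 higher and 4 lower; deviations of same-numbered libraries correlated at 0.229, the labels do not say that a number marks a shared batch, and the block changed no call among the members. The causes were not tested. With 1 replicate left out, fewer values remain to separate, and the share of all transcripts with separated groups was not computed. Counts of separated members are therefore not given for these fits. The members' median log2 fold change was then 0.17 to 0.33, where that of all transcripts was 0.07 to 0.11. Over the tested rows named by the rule, 3 of 215 comparisons with the 4-library alternatives changed sign. These were IDH3G with median-ratio scaling (-0.055) and quantile normalization (-0.15), and the main IDH3B row with median-ratio scaling (-0.0023). With 1 replicate left out, IDH3A ranged from -0.34 to 0.090, IDH3G from -0.0077 to 0.10, and the IDH3B rows from -0.24 to 0.45 (NM_001145872), -0.59 to 0.038 (NM_001167874) and -2.29 to 1.02 (non-coding). With 1 replicate left out, KDM5A (adjusted p of 0.0204 to 0.232) and KDM5C passed only without NC replicate 1 (0.0204 and 0.0212). KDM6A ranged from -0.37 to 0.15. Without read counts, what depth can detect was not assessed.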
